A study of Rattus rattus with 18 samples.

Results

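MicroRNA levels in the peri region of the rat brain were compared between 3 rats labelled remote limb postconditioning (PostC) and 3 rats labelled transient middle cerebral artery occlusion (tMCAO). The 6 arrays were chosen by the group and region in their titles and belong to a set of 18 arrays, namely core and peri of 9 rats, 3 of them sham-operated. All animals were Sprague-Dawley rats, described in the methods as males, and their age was not given in the sources used here. The methods give more than 1 time of sacrifice after reperfusion and do not say which applies to the arrays. tMCAO is a stroke model in which blood flow through the middle cerebral artery is blocked with a filament and later restored, and sham surgery leaves the artery open. The labels do not say whether the PostC rats also underwent tMCAO, or how the limb was treated, so what the contrast varies is known only in part. The labels call the peri tissue striatum, while the methods place the core in the striatum and the surrounding region in the cortex. Every array held RNA of dissected tissue from 1 rat, so that fewer cells of a type and less miRNA per cell cannot be told apart. On each array, 761 rat miRNAs had 4 spots each, and the 532 miRNAs detected on at least 3 of the 18 arrays were tested. Detection was judged per array, by whether the middle of a miRNA's 4 spots was brighter than the median empty spot plus 3 scaled median absolute deviations.

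miRNAs are short RNAs that guide Argonaute proteins to messenger RNAs and lower their translation or stability. Pairing runs mainly through the seed, bases 2 to 8 of the mature miRNA, so miRNAs with the same seed share many predicted targets. Remote postconditioning is a series of brief occlusions of limb blood flow given after a brain injury, and it is studied for its effect on tissue at the margin of an infarct. In brain, miR-124-3p and miR-128-3p are abundant in neurons, miR-338-3p and the miR-219 family in oligodendrocytes, miR-132 and miR-212 follow neuronal activity, and miR-210 is induced by hypoxia.

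The sequences below are those of some of the miRNAs described in the comparison, as given for the probes of the array, with the seed in capitals. The first set holds miR-338-3p and the miR-29 and miR-27 families, in which a member was higher in all 3 PostC rats than in any tMCAO rat.
miR-29b-3p: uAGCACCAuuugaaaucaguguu
miR-29a-3p: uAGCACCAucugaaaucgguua
miR-29c-3p: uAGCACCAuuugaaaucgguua
miR-27a-3p: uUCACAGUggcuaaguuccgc
miR-27b-3p: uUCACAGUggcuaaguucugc
miR-338-3p: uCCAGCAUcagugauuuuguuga
The second set holds miRNAs that were lower in all 3 PostC rats, each with the measured miRNA that shares its seed where there was such a miRNA.
miR-129-2-3p: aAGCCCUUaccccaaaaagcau
miR-129-1-3p: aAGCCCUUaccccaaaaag
miR-3084a-3p: uUCUGCCAguccccuucagaca
miR-26a-5p: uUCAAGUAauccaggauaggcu
miR-26b-5p: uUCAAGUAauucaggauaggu
The third set holds miRNAs in which PostC rats 1 and 2 lay above all tMCAO rats and PostC rat 3 did not.
miR-568: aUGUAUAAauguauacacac
miR-218a-5p: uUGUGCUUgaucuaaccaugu
miR-494-5p: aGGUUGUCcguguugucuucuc
miR-181c-5p: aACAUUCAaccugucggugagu
miR-181b-5p: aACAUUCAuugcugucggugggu

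The array labelled PostC rat 3 stood apart from the other PostC arrays. Whether its label, its dissection or the animal differed was not tested, and every PostC mean below includes it unless stated. Across the 532 miRNAs, its log2 intensities correlated with those of PostC rats 1 and 2 at r = 0.893 and 0.898, and with those of the 3 tMCAO rats at r = 0.955 to 0.962. PostC rats 1 and 2 correlated with each other at r = 0.978, with the sham rats at 0.957 to 0.980 and with the tMCAO rats at 0.917 to 0.951. These values describe likeness across miRNAs measured on shared arrays and carry no test. The table of normalized intensities that the authors deposited gave the same order, 0.883 to 0.891 for PostC rat 3 with its own group and 0.948 to 0.956 with tMCAO. Detection also differed, with 336, 524 and 188 miRNAs detected in PostC rats 1, 2 and 3, 230, 213 and 189 in the tMCAO rats, and 318 to 471 in the sham rats. The limit of detection from the empty spots was 184, 52.9 and 329 units in PostC and 80.9, 346 and 338 units in tMCAO, and when the dimmest 25% of miRNA spots set the limit instead, the numbers lay between 457 and 546 on these 6 arrays. Because PostC rat 3 differs from its group in the very values that are compared, leaving it out selects on the outcome, and the values without it are given here as a description of 2 rats.

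**Figure D1:**
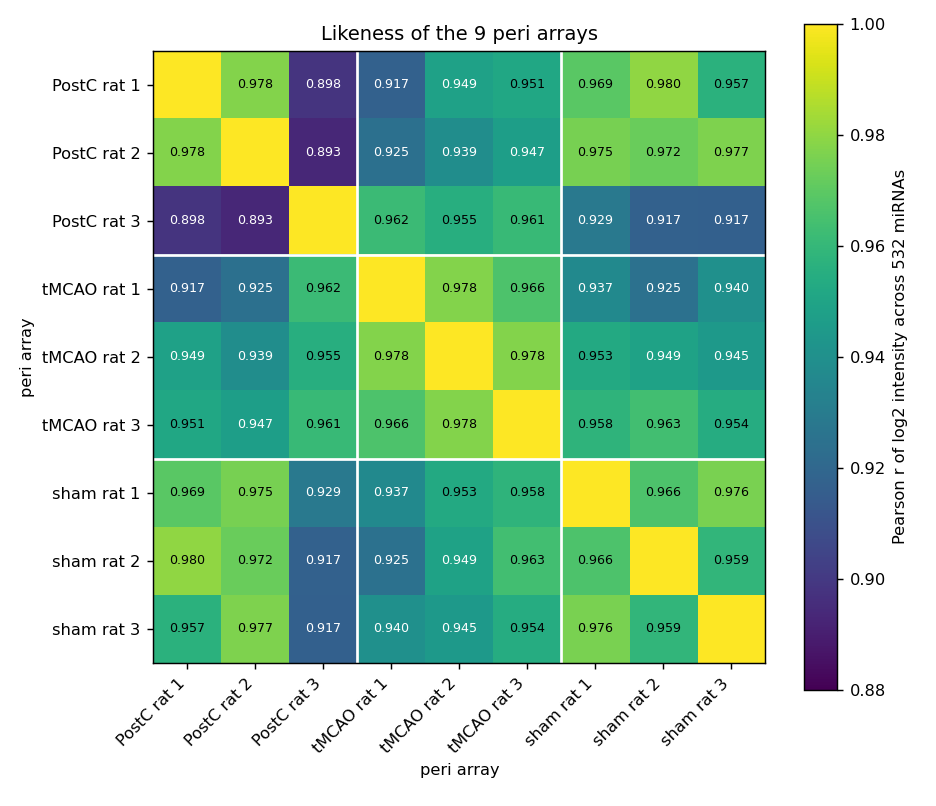
Pearson correlation of normalized log2 intensity across 532 miRNAs between each pair of the 9 peri arrays (both axes list the arrays, and colour and number give r). PostC rat 3 reached 0.893 and 0.898 with the other PostC rats and 0.955 to 0.962 with the tMCAO rats.

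No miRNA passed the threshold between PostC and tMCAO in peri. Of 532 miRNAs, 0 had an adjusted p under 0.05 in limma with Benjamini-Hochberg adjustment (0.0%), and the smallest adjusted p was 0.332. Before adjustment 30 miRNAs had p under 0.05 (5.64%), 19 higher in PostC (3.57%) and 11 lower (2.07%). By the methods' t-test 20 miRNAs had p under 0.05 before and 0 after Benjamini-Hochberg adjustment. The groups did not overlap in 42 miRNAs (7.89%). The values of the 3 PostC rats lay wholly above those of the 3 tMCAO rats in 18 (3.38%) and wholly below in 24 (4.51%). Over all miRNAs 298 had the higher mean in PostC and 234 the lower, with a median log2 difference of 0.04. This median moved with the scaling, to 0.22 with 361 higher and 171 lower under median scaling, to 0.15 with 310 and 222 under plain background subtraction and to -0.0041 with 263 and 269 under quantile normalization, so that every difference is relative to the other miRNAs.

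The interval of the difference shows what these 6 arrays could resolve. The median standard error was 0.30 on the log2 scale, and in 336 miRNAs (63.2%) the 95% interval of the difference lay within a log2 difference of -1 and 1. The remaining intervals reached past a doubling or halving in at least 1 direction, so that a change of this size was not excluded by the data for them. The median SD between rats was 0.35 in PostC, 0.20 in tMCAO and 0.25 in sham. An exact permutation test of 3 rats against 3 cannot give a two-sided p under 0.1, so single miRNAs rest on limma.

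**Figure D2:**
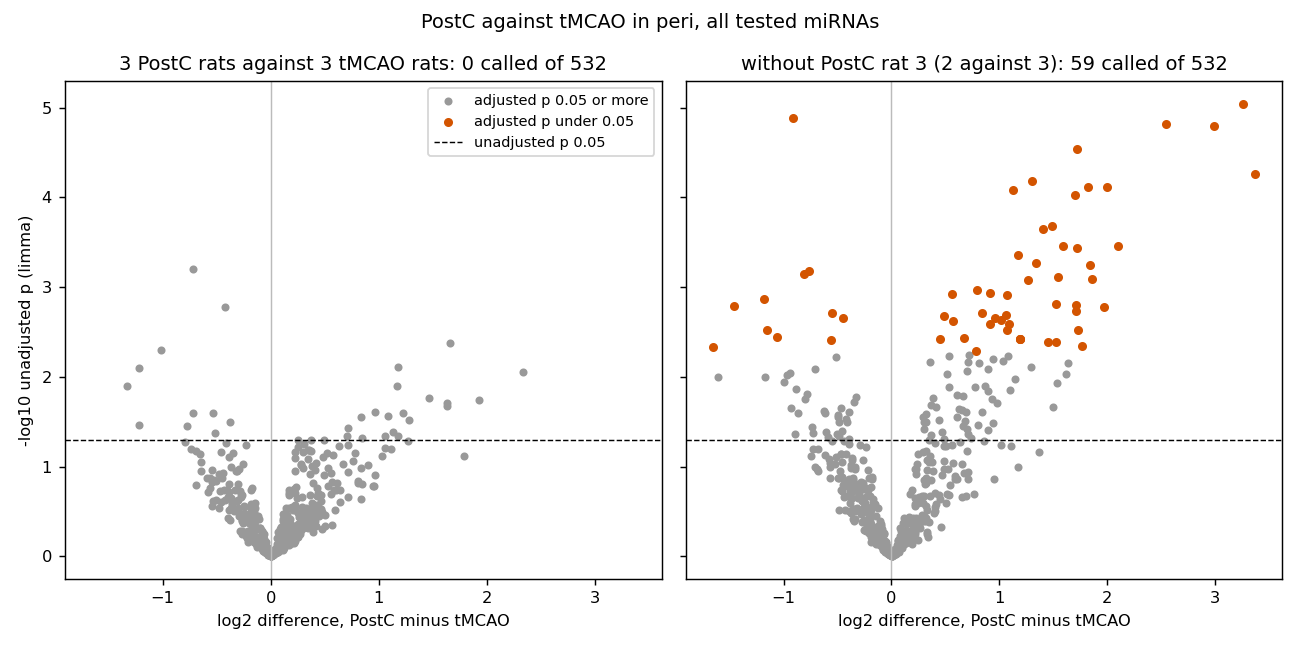
Log2 difference between PostC and tMCAO in peri (x axis) against -log10 of the unadjusted limma p (y axis), 1 point per miRNA, for all 6 rats (left) and without PostC rat 3 (right). With all rats 0 of 532 points passed an adjusted p of 0.05, and without PostC rat 3 59 passed, 48 of them to the right of 0.

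miR-29b-3p, a member of a family that targets extracellular matrix messenger RNAs, had the smallest p among the miRNAs that were higher in all 3 PostC rats and detected on all 3 of their arrays. Its normalized log2 intensity was 11.78, 10.02 and 11.04 in the PostC rats and 8.63, 9.78 and 9.45 in the tMCAO rats. The lowest PostC rat lay just above the highest tMCAO rat, and all sham rats, at 9.80 to 10.58, lay above the tMCAO rats. The log2 difference was 1.66 (95% interval 0.63 to 2.69, adjusted p = 0.661 in limma). miR-27a-3p, from a cluster with miR-23a and miR-24 that is expressed in vessels and glia, measured 11.68, 11.23 and 11.70 in PostC and 9.75, 10.35 and 10.98 in tMCAO. PostC and tMCAO did not overlap, the sham rats at 11.11 to 11.79 overlapped PostC, and the log2 difference was 1.18 (95% interval 0.37 to 1.98, adjusted p = 0.674 in limma). miR-338-3p, which promotes oligodendrocyte maturation, measured 10.86, 9.09 and 10.78 in PostC and 8.06, 8.72 and 9.06 in tMCAO, where it was detected on 2 of 3 arrays. PostC rat 2 lay just above the highest tMCAO rat, and the sham rats spread from 8.10 to 10.56. The log2 difference was 1.63 (95% interval 0.29 to 2.98, adjusted p = 0.693 in limma).

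The other upward differences of this kind were small. miR-221-3p, a miRNA of vessel cells and of proliferating cells, measured 13.09, 13.08 and 13.25 in PostC, 12.72, 12.76 and 12.80 in tMCAO and 13.10 to 13.30 in sham, with a log2 difference of 0.38 (adjusted p = 0.729 in limma). Its groups were tight, with an SD of 0.10 in PostC and 0.04 in tMCAO. miR-378b, detected on 2 of 3 tMCAO arrays, had a log2 difference of 0.38 as well, with adjusted p = 0.873 in limma. These 5 miRNAs were all that met both conditions among the 18 that lay wholly above tMCAO, a choice that places PostC rat 3 with its group in each of them. Without PostC rat 3 their log2 differences were 1.62, 1.10, 1.37, 0.33 and 0.28 in the order given, and none of them passed the threshold in that fit.

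Among the miRNAs that were lower in all 3 PostC rats and detected on all 3 tMCAO arrays, miR-129-2-3p had the smallest p. The miR-129 family is abundant in neurons. miR-129-2-3p measured 13.02, 12.56 and 13.20 in the PostC rats, 14.38, 14.06 and 13.39 in the tMCAO rats and 12.32 to 12.88 in the sham rats. The tMCAO rats lay above both other groups, and the log2 difference between PostC and tMCAO was -1.02 (95% interval -1.67 to -0.37, adjusted p = 0.661 in limma). miR-3084a-3p measured 9.04, 8.69 and 9.60 in PostC, 10.75, 10.32 and 9.91 in tMCAO and 8.34 to 9.19 in sham. The order of the groups was the same as for miR-129-2-3p, and the log2 difference was -1.22 (95% interval -2.05 to -0.38, adjusted p = 0.674 in limma). miR-26a-5p, which is broadly expressed and abundant in brain, measured 14.55, 14.53 and 14.03 in PostC and 15.27, 14.76 and 14.67 in tMCAO, a log2 difference of -0.53 (adjusted p = 0.693 in limma).

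A further 7 miRNAs named by the same rule lay wholly below the tMCAO rats in PostC, with smaller differences. They were miR-125b-5p (-0.35), miR-668 (-0.66), miR-361-5p (-0.55), miR-674-3p (-0.53), miR-325-3p (-0.55), let-7b-5p (-0.39) and miR-496-3p (-0.47), each given as log2 difference, and their adjusted p lay between 0.693 and 0.813 in limma. Under median scaling the differences of miR-674-3p, let-7b-5p and miR-496-3p turned to 0.021, 0.035 and 0.076, so their direction depends on the scaling. let-7b-5p, of a family that restrains growth genes and is abundant in mature tissue, measured 12.48, 12.36 and 12.42 in PostC and 13.07, 12.84 and 12.51 in tMCAO, and its PostC rats differed among themselves by less than the tMCAO rats did. miR-10a-5p, with the smallest adjusted p of all, was detected on 0 PostC arrays and on 1 tMCAO array, so no fold is given for it, and its measured means were 6.38 in PostC and 7.10 in tMCAO.

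**Figure D3:**
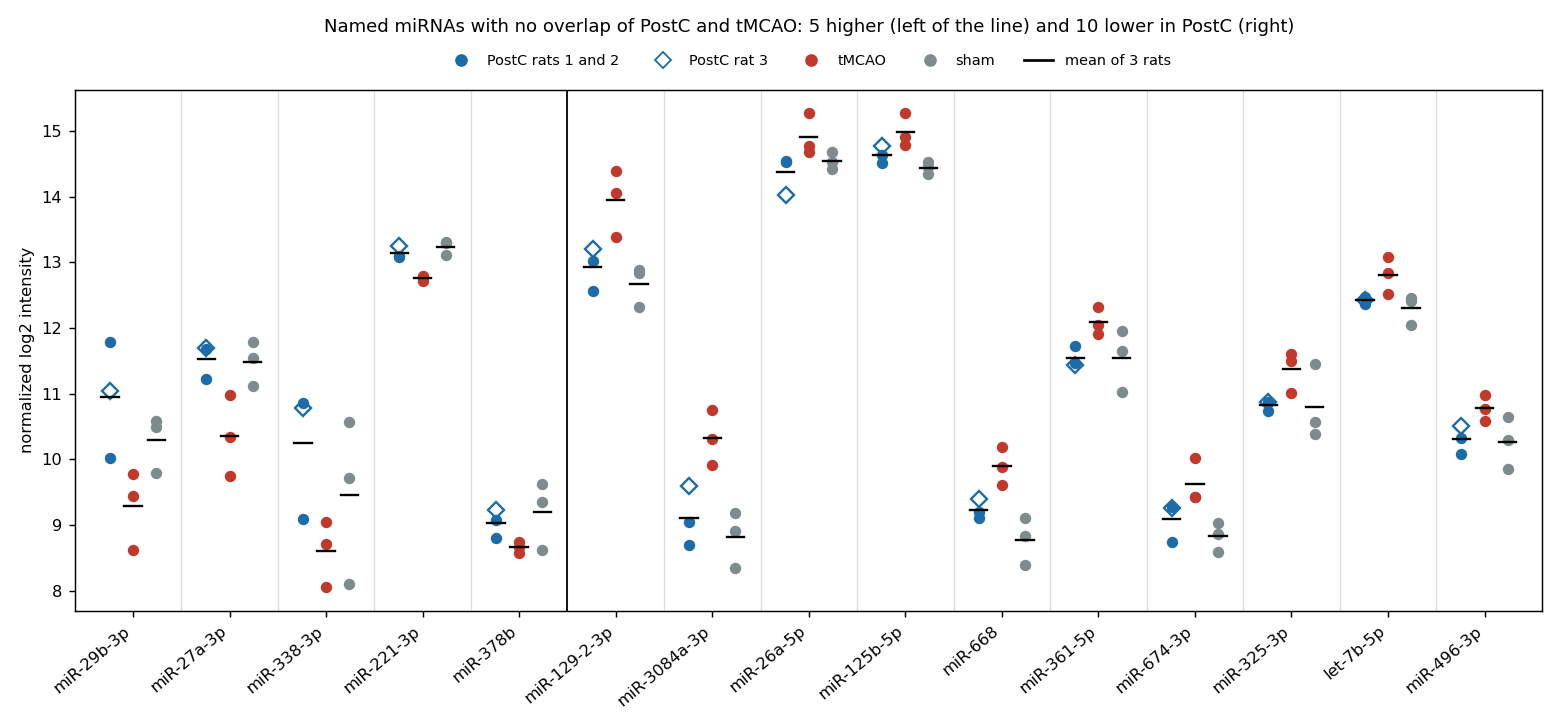
Normalized log2 intensity (y axis) in each peri array for the 5 miRNAs that were higher in all 3 PostC rats than in any tMCAO rat and detected on all 3 PostC arrays, and for the 10 of smallest p among the 11 that were lower and detected on all 3 tMCAO arrays, with 1 point per rat, an open diamond for PostC rat 3 and a bar for the mean of 3 rats. None of these differences passed the threshold, and under median scaling miR-674-3p, let-7b-5p and miR-496-3p were no longer lower in PostC.

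miRNAs with the same seed had unlike differences in several of these families, although the difference between members was not tested. In the miR-29 family, printed above, the log2 difference was 1.66 for miR-29b-3p, 0.39 for miR-29c-3p and -0.27 for miR-29a-3p, and that of miR-29a-3p turned to 0.020 under median scaling. miR-27b-3p differs from miR-27a-3p by 1 base and had a log2 difference of 0.26, against 1.18 for miR-27a-3p. How much of the signal such close probes share was not tested. miR-26b-5p, with 2 base changes from miR-26a-5p, measured 11.73, 11.11 and 8.57 in PostC and 9.27, 10.64 and 9.99 in tMCAO. It was higher in PostC rats 1 and 2 than in any tMCAO rat and was not detected in PostC rat 3, and its fitted log2 difference of 0.50 became 1.45 without PostC rat 3. The miR-129 pair differed in the same direction, with -1.22 for miR-129-1-3p beside -1.02 for miR-129-2-3p, and the miR-129-1-3p sequence is that of miR-129-2-3p without its last 3 bases.

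Without PostC rat 3, 59 of 532 miRNAs passed an adjusted p of 0.05 in limma (11.1%), 48 of them higher in PostC rats 1 and 2 (9.02%) and 11 lower (2.07%), and 142 had p under 0.05 before adjustment (26.7%). Because 0 passed with PostC rat 3 included, the choice of these miRNAs favours those in which it lay away from PostC rats 1 and 2, so its place in them is a description. Among the 48 higher ones it fell within the range of the tMCAO rats in 28 and beyond that range, away from PostC rats 1 and 2, in 20. In the 11 that were lower, PostC rat 3 lay on the side of PostC rats 1 and 2 in 4, within the tMCAO range in 2 and beyond it in 5. Many of these miRNAs were dim: 28 of the 48 and 5 of the 11 were detected on 0 tMCAO peri arrays. On all 6 arrays 8 of the 48 and 4 of the 11 were detected. Where no tMCAO array detected a miRNA, the tMCAO range holds only values below detection. The place of PostC rat 3 against that range was then not measured. The number also moved with the processing, from 12 with plain background subtraction to 93 with median scaling, and 12 of the 59 were also called under plain subtraction and 50 under median scaling. When the fit kept all 9 peri arrays but weighted each by its estimated quality, PostC rat 3 received a weight of 0.177 and 66 miRNAs were called (12.4%), 52 of them among the 59.

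**Figure D4:**
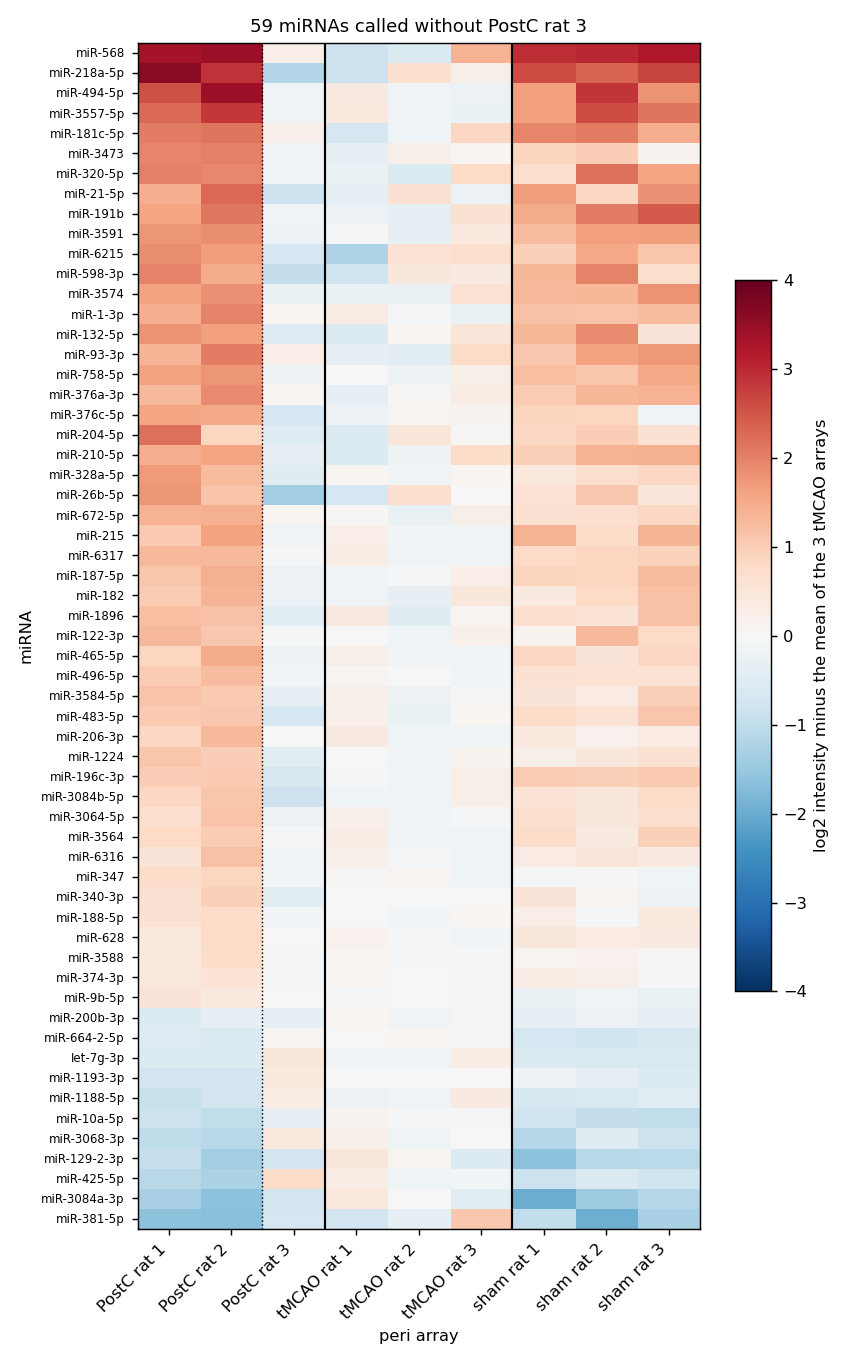
Normalized log2 intensity minus the mean of the 3 tMCAO arrays (colour) in the 9 peri arrays (columns) for the 59 miRNAs called without PostC rat 3 (rows, ordered by their difference). In the upper 48 rows PostC rats 1 and 2 lie above the tMCAO mean and PostC rat 3 lies nearer to it, a pattern that the choice of rows favours, since 0 miRNAs passed with PostC rat 3 included.

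miR-568 showed the largest difference both with all rats and without PostC rat 3. It measured 12.38, 12.49 and 9.34 in the PostC rats, 8.23, 8.51 and 10.45 in the tMCAO rats and 12.01, 12.09 and 12.26 in the sham rats. It was detected on all of these arrays but that of tMCAO rat 2. PostC rat 3 lay inside the tMCAO range, and tMCAO rat 3 was higher than the other tMCAO rats. The log2 difference was 2.34 with all rats (95% interval 0.70 to 3.98, adjusted p = 0.674 in limma) and 3.37 without PostC rat 3 (adjusted p = 0.00436 in limma). miR-218a-5p, a neuronal miRNA, measured 12.60, 11.87 and 7.82 in PostC, 8.11, 9.62 and 9.20 in tMCAO and 11.29 to 11.68 in sham. It was not detected in PostC rat 3 or in tMCAO rat 1, so these 2 values have no order, and the fitted log2 difference was 1.79 with all rats (adjusted p = 0.693 in limma) and 3.26 without PostC rat 3 (adjusted p = 0.00218 in limma).

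miR-494-5p, from the imprinted Dlk1-Dio3 cluster, measured 9.64, 10.53 and 6.92 in PostC and 7.47, 6.98 and 6.86 in tMCAO, where it was not well above background on any array. Against the level of detection of those arrays the mean of the 3 PostC rats was 1.73-fold higher. That mean includes PostC rat 3 as measured, where the miRNA was not detected, so the fold is not a lower bound. Its adjusted p in limma was 0.693 with all rats and 0.00218 without PostC rat 3. Among the 6 arrays miR-3557-5p and miR-3473 were likewise detected in PostC rats 1 and 2 only. miR-3557-5p measured 9.30, 9.89 and 6.87 in PostC and 6.80 to 7.44 in tMCAO, 1.38-fold against that level with the same limit. The adjusted p of miR-3557-5p in limma was 0.693 with all rats and 0.00218 without PostC rat 3. miR-3473 measured 10.16, 10.22 and 8.04 in PostC and 7.86 to 8.42 in tMCAO, 2.12-fold with the same limit. The adjusted p of miR-3473 in limma was 0.693 and 0.00436. In all 3 miRNAs the values of PostC rat 3 and of the tMCAO rats were below detection, so they have no order among them. miR-21-5p, an injury- and glia-associated miRNA, measured 11.98, 12.81 and 9.67 in PostC, 10.16, 11.15 and 10.30 in tMCAO and 11.35 to 12.37 in sham. It was detected on all of these arrays, and PostC rat 3 lay below the tMCAO rats. Its log2 difference was 0.95 with all rats (adjusted p = 0.813 in limma) and 1.86 without PostC rat 3 (adjusted p = 0.0182 in limma).

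The miR-181 family held 4 tested members with the same seed, all higher in PostC on average. miR-181c-5p measured 11.35, 11.46 and 9.52 in PostC, 8.64, 9.14 and 10.15 in tMCAO and 10.77 to 11.38 in sham, and miR-181b-5p measured 11.68, 11.32 and 9.94 in PostC and 8.87, 10.10 and 10.63 in tMCAO. In both, PostC rats 1 and 2 lay above the tMCAO rats and PostC rat 3 lay among them. The log2 differences with all rats were 1.46 for miR-181c-5p, 1.11 for miR-181b-5p, 0.64 for miR-181d-5p, which was not detected in PostC rat 3, and 0.37 for miR-181a-5p, with adjusted p from 0.693 to 0.873 in limma. Without PostC rat 3 they were 2.09, 1.63, 1.29 and 0.28, and miR-181c-5p alone passed the threshold in that fit (adjusted p = 0.0121 in limma). miR-181 members are known in brain for acting on chaperone and apoptosis genes.

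Among the 11 lower miRNAs without PostC rat 3 were miR-425-5p and miR-3068-3p, in which PostC rat 3 was the highest of the PostC rats. miR-425-5p measured 9.73, 9.57 and 11.56 in PostC and 11.11, 10.66 and 10.72 in tMCAO. The log2 difference was -0.54 with all rats (0.0042 under median scaling) and -1.18 without PostC rat 3 (adjusted p = 0.0248 in limma). miR-129-2-3p and miR-3084a-3p also passed in that fit, at -1.16 (adjusted p = 0.0343 in limma) and -1.46 (adjusted p = 0.0269 in limma), and in these PostC rat 3 lay below the tMCAO rats like the rest of its group.

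The core of the same 6 rats gave the same contrast on separate arrays. In core 13 of 532 miRNAs passed the threshold (2.44%), 12 higher in PostC (2.26%) and 1 lower (0.188%). The number fell to 4 with only these 2 groups in the fit, to 3 with the replicate number as a block and to 0 by the methods' t-test, which gave 54 before adjustment. The core array of PostC rat 3 also stood apart, with r = 0.831 and 0.870 to PostC rats 1 and 2, which reached 0.926 with each other, and r = 0.786 to 0.851 to tMCAO and 0.847 to 0.875 to sham. By estimated quality it had the lowest weight of the core arrays, 0.261, followed by sham rat 2 with 0.357, and with these weights 13 miRNAs passed. The largest was again miR-568, with 13.31, 12.10 and 12.75 in the PostC cores and 8.72, 6.86 and 8.97 in the tMCAO cores, a log2 difference of 4.54 (adjusted p = 0.00264 in limma). miR-210-5p, an arm of the hypoxia-induced miR-210, measured 13.18, 12.03 and 12.50 in the PostC cores and 9.71, 9.88 and 9.74 in the tMCAO cores, a log2 difference of 2.79 (adjusted p = 0.00264 in limma). In core PostC rat 3 lay with PostC rats 1 and 2 in both miRNAs. This number moved from 3 to 22 when rats were left out in turn, with 3 without tMCAO rat 1 or tMCAO rat 2, 5 without PostC rat 3, 4 and 6 without sham rats 1 and 3, and 22 without sham rat 2.

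The differences in peri had the direction of those in core for these miRNAs. All 13 differed in the same direction in peri, without passing the threshold there. Over all 532 tested miRNAs 298 were higher and 234 lower in peri. Of the 13, 11 were among the 59 called in peri without PostC rat 3, beside 11.1% of all tested miRNAs. Of the 48 higher miRNAs 44 were also higher in PostC in core, where 52.3% of all tested miRNAs were, and of the 11 lower ones 10 were also lower. Rat by rat, 38, 31 and 44 of the 48 were above the tMCAO mean in the core of PostC rats 1, 2 and 3, against 52.4%, 43.2% and 50% of all tested miRNAs. In these counts the core array of PostC rat 3 lay above the tMCAO mean in more of the 48 than those of PostC rats 1 and 2. The cores of PostC rats 1, 2 and 3 had 198, 240 and 605 miRNAs detected, and those of the tMCAO rats 447, 348 and 233. With the limit from the dimmest spots the PostC cores had 468, 492 and 537. The part of detection in these counts was not tested. Core and peri come from the same animals and are not independent samples of them.

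The test of whether the change differed between the regions gave no call. Per rat, peri minus core was compared between PostC and tMCAO, and 0 of 532 miRNAs passed an adjusted p of 0.05 in limma (0.0%), with 30 at p under 0.05 before adjustment (5.64%). The methods' t-test gave 24 before and 0 after adjustment. By the limits fixed for naming, the highest differences were those of miR-1839-5p at 1.22 and miR-378b at 0.87, and the lowest were those of miR-679 at -2.42 and miR-466d at -1.67 (adjusted p = 0.471 in limma for each). miR-679 showed a peri minus core difference of -1.34, 0.010 and -0.46 in the PostC rats and of 1.44, 1.35 and 2.66 in the tMCAO rats, without overlap, and was not detected in the peri of PostC rat 3 or the core of tMCAO rat 3.

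The sham rats give the level without occlusion, and these comparisons share arrays with the one above, so their values are only set side by side. Between PostC and sham in peri 0 of 532 miRNAs passed the threshold in limma (0.0%), with 15 at an unadjusted p under 0.05 (2.82%), and between tMCAO and sham 3 passed, all higher after tMCAO (0.564%). For miR-568 the log2 difference from sham was -3.06 in tMCAO, and its PostC mean of 11.40 ± 1.79 (SD, n = 3) stood beside a sham mean of 12.12 ± 0.13. For miR-129-2-3p the means were 12.92 ± 0.33 in PostC, 13.94 ± 0.51 in tMCAO and 12.67 ± 0.31 in sham (SD, n = 3). For miR-29b-3p they were 10.95 ± 0.88, 9.29 ± 0.59 and 10.29 ± 0.43.

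The labelled tissue was checked against miRNAs of brain cells. Of the 10 neuronal miRNAs 9 were detected on all PostC and on all tMCAO peri arrays, among them miR-124-3p at 14.04, 14.24 and 14.56 in PostC and 14.71, 14.14 and 14.19 in tMCAO. In this list 4 were higher and 6 lower in PostC, with a median log2 difference of -0.02 that changed sign with the scaling, against 298 and 234 and a median of 0.04 over all miRNAs. All 4 oligodendrocyte miRNAs had the higher mean in PostC, with a median of 0.44 (0.39 to 1.23 over the other scalings). Of the 4, 1 was higher at an unadjusted p under 0.05, miR-338-3p, as were 3.57% of all tested miRNAs. After adjustment 0 of the 4 passed. miR-219a-2-3p measured 11.31, 11.86 and 11.52 in PostC and 11.18, 11.03 and 11.58 in tMCAO, with overlap. miR-219a-5p was detected on 2 PostC arrays and 0 tMCAO arrays.

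Red cell and vessel miRNAs set PostC rat 3 apart. The summed level of the 6 leukocyte miRNAs was instead lowest in it among the PostC rats, at 4730, 4539 and 3245. miR-451-5p, an erythrocyte miRNA, measured 10.74, 9.57 and 12.63 in PostC, 11.03, 10.41 and 11.17 in tMCAO and 10.16 to 10.86 in sham. miR-143-3p, of vascular smooth muscle, measured 11.00, 11.10 and 13.19 in PostC, 11.48, 11.05 and 11.58 in tMCAO and 11.23 to 11.90 in sham. miR-126a-3p, of endothelium, measured 12.93, 12.71 and 13.81 in PostC and 12.39, 12.42 and 12.76 in tMCAO. In each of these PostC rat 3 was the highest of the 9 peri arrays. The summed level of the 4 smooth muscle miRNAs, in linear normalized units, was 7238, 7462 and 22794 in PostC, 8106 to 9832 in tMCAO and 7895 to 11071 in sham, with 2 of the 4 detected on all PostC arrays. The summed level of the 4 red cell miRNAs was 1996, 1054 and 6707 in PostC, 1710 to 2579 in tMCAO and 1401 to 2115 in sham, with 1 of the 4 detected on all PostC arrays, and both arms of miR-144 were detected on no peri array. The summed level of the 2 endothelial miRNAs was 7966, 6806 and 14420 in PostC, 5452 to 7022 in tMCAO and 6366 to 8522 in sham, with 1 of the 2 detected on all PostC arrays. The part of vessel and blood content in the values of PostC rat 3 was not tested. With all rats 3 tested smooth muscle miRNAs had the higher mean in PostC and 0 the lower (median log2 difference 0.16), and without PostC rat 3 the count was 0 higher and 3 lower (-0.31). Of these 3, miR-145-3p was detected on no tMCAO array. Of the 2 tested red cell miRNAs 1 was higher and 1 lower with all rats, and both were lower without PostC rat 3. Both endothelial miRNAs had the higher mean with and without PostC rat 3. In each of these lists the other tested member, miR-486 or miR-126a-5p, was detected on no tMCAO array, so no median is given. None of these miRNAs passed the threshold in limma with all rats, and leukocyte miRNAs miR-155-5p, miR-142-3p and miR-223-3p were detected on no peri array.

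**Figure D5:**
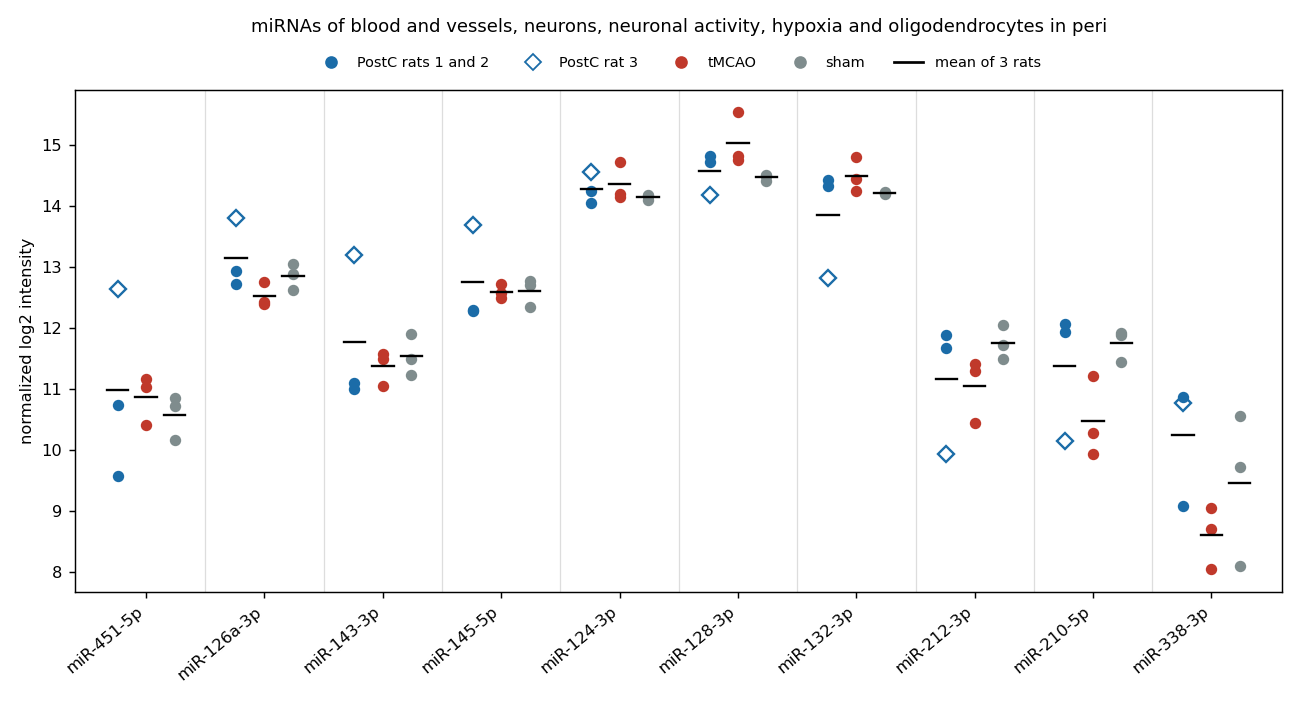
Normalized log2 intensity (y axis) in each peri array of miRNAs known from erythrocytes and vessels (miR-451-5p to miR-145-5p), neurons (miR-124-3p, miR-128-3p), neuronal activity (miR-132-3p, miR-212-3p), hypoxia (miR-210-5p) and oligodendrocytes (miR-338-3p), with 1 point per rat, an open diamond for PostC rat 3 and a bar for the mean. PostC rat 3 is the highest array in the first 4 miRNAs and the lowest in miR-132-3p and miR-212-3p.

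PostC rat 3 was the lowest PostC rat in the activity-regulated miR-132-3p and miR-212-3p and in miR-210-5p. miR-132-3p measured 14.41, 14.32 and 12.81 in PostC, 14.80, 14.24 and 14.44 in tMCAO and 14.19 to 14.23 in sham, and miR-212-3p from the same cluster measured 11.67, 11.89 and 9.94 in PostC and 10.44, 11.29 and 11.41 in tMCAO. PostC rat 3 was below all other peri arrays in both, while PostC rats 1 and 2 were above all tMCAO rats in miR-212-3p only. The summed level of the 5 activity-regulated miRNAs was 28066, 27661 and 10046 in PostC, 23885 to 32215 in tMCAO and 24372 to 27005 in sham, and 2 of them were higher and 3 lower in PostC (median log2 difference -0.12, or 0.41 under median scaling). miR-210-5p measured 11.94, 12.06 and 10.14 in PostC, 9.94, 10.28 and 11.22 in tMCAO and 11.44 to 11.91 in sham. Its log2 difference was 0.90 with all rats (adjusted p = 0.729 in limma) and 1.52 without PostC rat 3 (adjusted p = 0.0269 in limma). The guide arm miR-210-3p, which carries most of the known function of miR-210, measured 7.59, 8.43 and 8.35 in PostC and 8.20, 7.59 and 7.59 in tMCAO. It was detected on 2 PostC arrays and 0 tMCAO arrays, so no fold is given for it.

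The 15 miRNAs of the study's heat map were chosen on these samples, the tMCAO arrays included, so their direction is not independent evidence. In peri 11 of them had the higher mean in PostC and 4 the lower, with a median log2 difference of 0.24, and 0 passed the threshold in limma. The count was 15 and 0 under median scaling (0.69) and 9 and 6 under quantile normalization (0.14). The groups did not overlap in 1 of the 15, let-7b-5p, beside 7.89% of all tested miRNAs. miR-16-5p, an abundant miRNA of blood and other tissues, measured 12.66, 12.68 and 13.16 in PostC and 12.33, 12.59 and 12.95 in tMCAO, a log2 difference of 0.21. miR-30e-5p measured 12.44, 11.23 and 13.65 in PostC and 12.02, 12.11 and 12.45 in tMCAO, where the PostC rats spread over more than the distance between the groups. The log2 differences of the others named in this list lay at 0.72 for miR-101a-3p, -0.33 for let-7c-5p, -0.18 for miR-191a-5p, -0.07 for miR-150-5p and 0.22 for miR-9a-3p, and those of let-7c-5p, miR-191a-5p and miR-150-5p, like that of let-7b-5p, were above 0 under median scaling. That of miR-30e-5p, 0.24, turned to -0.012 under quantile normalization.

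In the remaining families no miRNA passed the threshold with all rats. Their counts and medians include miRNAs detected on no array of PostC or of tMCAO, whose differences are not measured on both sides. These were 1 of the 6 tested in the miR-29 family, 2 of 7 in miR-181, 4 of 9 in miR-15 and miR-16, 7 of 12 in miR-10 and miR-125, 4 of 9 in miR-23 and miR-27, 0 of 4 in miR-26 and miR-101, 5 of 8 in miR-34, 9 of 19 in let-7, 5 of 11 in miR-30 and 8 of 16 in miR-17-92, beside 286 of 532 over all tested miRNAs. The miR-29 family had 4 higher and 2 lower members (median log2 difference 0.29), the miR-181 family 5 and 2 (0.37) and the miR-15, miR-16, miR-195 and miR-497 group 9 and 0 (0.13), and these 3 medians stayed above 0 under all scalings tried and without PostC rat 3 (0.14, 0.28 and 0.050). The miR-10, miR-99, miR-100 and miR-125 group had 3 higher and 9 lower members (median -0.08), below 0 under all scalings and without PostC rat 3, where the count was 1 and 11 (-0.19). The miR-23, miR-24 and miR-27 group had 6 and 3 (0.11), the miR-26 and miR-101 group 3 and 1 (0.38) and the miR-34 and miR-449 group 6 and 2 (0.16), and these medians stayed above 0 under all scalings. Without PostC rat 3 the miR-23, miR-24 and miR-27 group had 7 and 2 (0.18), whereas the miR-26 and miR-101 group had 2 and 2 (-0.016) and the miR-34 and miR-449 group 4 and 4 (-0.014), so the sign of both these medians rested on that array. The let-7 and miR-98 family had 7 and 12 (-0.06), the miR-30 family 5 and 6 (-0.0029) and the miR-17-92 cluster with its paralogs 9 and 7 (0.026), and the sign of each of these 3 medians changed with the scaling. Without PostC rat 3 the miR-17-92 cluster had 3 higher and 13 lower members (-0.21), the miR-30 family 3 and 8 (-0.10) and the let-7 family 9 and 10 (-0.036). Over all miRNAs 298 were higher and 234 lower with all rats, and 275 and 257 without PostC rat 3.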

How the data were processed

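Per the labels, miRNA was labelled with Cy5 on single-colour arrays. The authors deposited spot intensities, each the median of its pixels without background subtraction, and a table of normalized intensities after background subtraction and locally weighted regression. Here spot intensities were corrected with normexp (offset 50), log2-transformed, averaged over the 4 spots of a probe and normalized by cyclic loess over 18 arrays. Groups were compared in limma 3.58.1 (R 4.3.3, eBayes with a variance trend) on the 9 peri arrays, with Benjamini-Hochberg adjustment at 0.05, and each rat counted as 1 replicate. The number of arrays limits the precision. The fit was tested on simulated data. Other backgrounds, normalizations, filters, fits and the omission of each rat were tried as alternatives.

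Named miRNAs were, per direction, up to 10 past the threshold, filled by p with miRNAs whose groups do not overlap and that are detected on all 3 arrays of the brighter group (5 higher, 10 lower), then list members of highest signal, the heat map and the region difference. miRNAs named for values without PostC rat 3, in core or at an unadjusted p were chosen after their values were seen. Members and lists were chosen with earlier results of these data known. The lists were cell markers (neurons, oligodendrocytes, leukocytes, red cells, endothelium, smooth muscle, muscle, epithelium), activity, hypoxia, the heat map, 10 families and the Dlk1-Dio3 cluster. Sequences come from the array files, and no genome positions are given.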

Additional observations from a re-analysis of the deposited data

How the results depend on the processing

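Between PostC and tMCAO in peri the number of miRNAs past an adjusted p of 0.05 in limma stayed at 0 under both other backgrounds, quantile normalization, median scaling, the deposited intensities, cyclic loess on the peri arrays, the GC trend removed, both filters, the other limit of detection, no variance trend, only the 2 groups, and the methods' t-test. Leaving out rats in turn gave 0 to 59, with 59 without PostC rat 3 and 0 otherwise, and array quality weights, added after seeing the data, gave 66. Combined with leaving out PostC rat 3, also added then, plain background subtraction gave 12, the background from the dimmest spots 83, quantile normalization 91, median scaling 93, the deposited intensities 41, the GC trend removed 61, detection on all 6 arrays 12 of 167, and only the 2 groups 77. In core, leaving out rats in turn gave 3 to 22 against 13, the dimmest-spot background 20, only the 2 groups 4 and the methods' t-test 0. Between regions the deposited intensities gave 1, and leaving out rats gave 0 in each case. Under median scaling miR-674-3p turned to 0.021, let-7b-5p to 0.035, miR-496-3p to 0.076 and miR-425-5p to 0.0042. For the 48 miRNAs named by the rule, by an unadjusted p under 0.05 or as largest without PostC rat 3, 1124 values were computed under alternatives, of which 1058 kept direction and side of the threshold, 62 passed it, none of them with PostC rat 3 at equal weight, and 4 changed sign. Over all named miRNAs, the list members near 0 included, the sign changed in 23 under median scaling, in 12 under quantile normalization, in 17 without PostC rat 3 and in 49 under at least 1 alternative. The cause was not tested.

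With the replicate number as a block, 0 miRNAs passed in peri (40 at an unadjusted p under 0.05), 3 in core and 0 between regions. Same-numbered PostC and tMCAO rats are different animals, and their deviations in peri correlated at -0.447, -0.024 and -0.148. Between rats of unlike number the correlations lay between -0.196 and 0.348. These values cannot tell whether same-numbered samples shared more than a number. The slide and scan of the arrays are not given in the files, so no block for them was run.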

Other observations

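The Dlk1-Dio3 imprinted cluster, a large group of miRNAs abundant in brain, had 73 of its 82 miRNAs tested, 24 of them detected on no tMCAO peri array. In peri 34 had the higher mean in PostC and 39 the lower, with a median log2 difference of -0.05 that turned to 0.30 under median scaling, and 0 passed the threshold in limma with all rats. Its summed level, in linear normalized units, was 75047, 76318 and 76571 in PostC and 73576 to 77436 in tMCAO, so the rats differed little in this sum, PostC rat 3 included. Members of the cluster differed in direction: miR-494-5p was higher in PostC rats 1 and 2, miR-381-5p measured 7.05, 7.02 and 8.02 in PostC and 7.92, 8.37 and 9.78 in tMCAO, and miR-376a-3p measured 10.69, 11.26 and 9.48 in PostC and 9.05, 9.44 and 9.68 in tMCAO. miR-494-5p was detected on no tMCAO array and miR-381-5p on 1 PostC and 2 tMCAO arrays, so these directions rest in part on values below detection. Without PostC rat 3, 5 of the 73 were called higher and 2 lower, beside 9.02% and 2.07% of all tested miRNAs.

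The muscle miRNAs had 5 of 7 tested, 3 of them detected on no tMCAO array. Of the 5, 4 were higher and 1 lower, but 2 higher and 3 lower under quantile normalization and the background from the dimmest spots. miR-1-3p measured 8.46, 8.98 and 7.07 in PostC, 7.30, 6.96 and 6.75 in tMCAO, where it was detected on 0 arrays, and 8.16 to 8.27 in sham, whereas miR-133a-3p measured 7.76, 8.14 and 9.38 in PostC and 8.72, 8.12 and 8.43 in tMCAO. These miRNAs of the same tissue thus differed in which PostC rats were high. Of 9 epithelial miRNAs 3 were tested, 2 higher and 1 lower. All 3 were called without PostC rat 3 (11.1% of all tested miRNAs were), but miR-182 was detected on no tMCAO array and miR-200b-3p on no peri array. miR-204-5p, a choroid plexus miRNA detected on 2 PostC arrays and 1 tMCAO array, measured 10.96, 9.62 and 8.25 in PostC and 8.23, 9.25 and 8.82 in tMCAO. Of 6 leukocyte miRNAs 5 were tested, 2 of them detected on no peri array, with 2 higher and 3 lower, or 4 higher and 1 lower under quantile normalization, the dimmest-spot background and loess on the peri arrays alone. The summed level of the 6 was 4730, 4539 and 3245 in PostC rats 1, 2 and 3, 3505 to 4773 in tMCAO and 3122 to 3665 in sham.

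Across the 532 miRNAs the log2 difference between PostC and tMCAO in peri correlated with the GC content of the miRNA at Spearman rho = -0.215, and at -0.164 without PostC rat 3. This is a description across miRNAs, which are not independent replicates, and removing a GC trend from each array left 0 miRNAs called with all rats and 61 without PostC rat 3.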
